A study of Mus musculus with 4 samples.

Results

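Müller glia made up 214 of the 3237 barcodes in a pool of cells sorted from mouse retina for a Brn3b reporter. They were chosen on raw counts of unique molecular identifiers (UMIs), each standing for a captured transcript. A barcode was taken when it held 3 or more UMIs of Rlbp1, 3 or more of Slc1a3, none of Slc17a6 and none of Lhx1, with under 15% of its UMIs from mitochondrial genes. Of the 3104 barcodes under that mitochondrial limit, members were 6.89% (exact Clopper-Pearson 95% interval 6.03% to 7.84%). The other 2890 barcodes under the limit are the comparison throughout, unless a class of cells is named.

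The cells came from C57BL/6 mice 3 months of age that carried Brn3b::GFP, a reporter meant to label retinal ganglion cells, and the 4 retinas formed 1 group with no treatment. Cells were dissociated, sorted for green fluorescence and put through droplet-based 3′ sequencing with the 10x Chromium V2 kit. No barcode was tied to a retina, so the data are 1 pooled sample, and no test, p-value or standard error between animals is given. All intervals are 95% intervals and cover counting error only.

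Müller glia are the principal glial cells of the retina and span its whole thickness, from the vitreous surface to the outer limiting membrane. They clear glutamate and convert it to glutamine, move potassium and water, bind retinoids, and keep a set of transcription factors that retinal progenitors also use. In injured retina they upregulate intermediate filaments such as GFAP, a response called reactive gliosis.

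The markers were those of Müller glia. Glul, glutamine synthetase, gave 15972 CPM (UMIs of the gene per 1000000 UMIs of the group, interval 15730 to 16217) in Müller glia and 292 CPM in the other barcodes. Apoe, the lipid carrier apolipoprotein E, gave 14066 CPM in Müller glia and 488 CPM in the other barcodes. Dapl1, a death-associated protein-like gene of the retina and pigment epithelium, gave 1156 CPM in Müller glia and 22.7 CPM in the other barcodes. Each of the 6 markers was 28.8-fold or more above the other barcodes, and the first 3 named here were not in the rule.

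Aqp4, the water channel of glial endfeet, gave 719 CPM in Müller glia and 7.98 CPM in the other barcodes. Rlbp1, the retinaldehyde-binding protein CRALBP, gave 2237 CPM in Müller glia and 24.4 CPM in the other barcodes. Slc1a3, the glutamate transporter GLAST, gave 1269 CPM in Müller glia and 10.1 CPM in the other barcodes. The levels of Rlbp1 and Slc1a3 restate the rule.

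In mm10 coordinates, Glul (ENSMUSG00000026473) runs from 153899944 to 153909723 on the plus strand of chromosome 1 and Apoe (ENSMUSG00000002985) from 19696109 to 19699188 on the minus strand of chromosome 7. Rlbp1 (ENSMUSG00000039194) lies at 79374870 to 79387048 on the minus strand of chromosome 7, and Slc1a3 (ENSMUSG00000005360) at 8634124 to 8710764 on the minus strand of chromosome 15. Aqp4 (ENSMUSG00000024411) spans 15389496 to 15410982 on the minus strand of chromosome 18, and Dapl1 (ENSMUSG00000026989) spans 59484653 to 59505020 on the plus strand of chromosome 2. All are annotated as protein-coding, and the 3′ kit captures tags near the end of each transcript.

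The 4 markers outside the rule were present in most members. With each barcode thinned to 3000 UMIs, Glul and Apoe were each found in all 214 members, while the presence of Rlbp1 and Slc1a3 was fixed by the rule. Dapl1 was found in 91.6% of members, against 3.18% of the other barcodes. Aqp4 was found in 83.2% of members, against 1.97% of the other barcodes. As a gauge of stray transcripts, 0.303% of 660 ganglion cells and 0.858% of 583 bipolar cells had an Aqp4 UMI at that depth. Without thinning, at a median of 4645.5 UMIs in members and 9251.5 in the other barcodes, Aqp4 was seen in 92.1% of members and 3.70% of the other barcodes.

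The classes used for comparison were set from marker counts in the same way and held 660 ganglion cells, 502 horizontal cells, 583 bipolar cells, 157 microglia and 118 cones. A further 870 barcodes fell in no class. Members held between 3207 and 21927 UMIs and a median of 2018.5 genes, and their median mitochondrial share was 6.78%, against 6.01% in the other barcodes. Bipolar cells, with a median of 4182 UMIs, and microglia, with 3814, were close to Müller glia in depth, whereas ganglion cells had 17513.5. The deposited table has a row for EGFP, which held 0 UMIs over all 3237 barcodes, so these counts give no measure of the reporter in Müller glia. Pou4f2, which encodes Brn3b, gave 4 UMIs over the 214 members (3.85 CPM), against 84.7 CPM in ganglion cells.

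Barcodes just outside the rule resembled those just inside it. The 32 members whose lower count of Rlbp1 and Slc1a3 was exactly 3 had 15668 CPM of Glul and 737 CPM of Aqp4. The 19 barcodes with a lower count of 2 had 12873 CPM of Glul and 711 CPM of Aqp4, and the 14 with a lower count of 1 had 8691 CPM of Glul. Altogether, 58 barcodes outside the members carried a UMI of both genes. They held 59.2% of the Rlbp1 UMIs and 60.8% of the Aqp4 UMIs found outside the members, and without them the Aqp4 ratio was 226 in place of 90.1. Some barcodes on the other side of the comparison thus carried the same genes as the members.

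**Figure D1:**
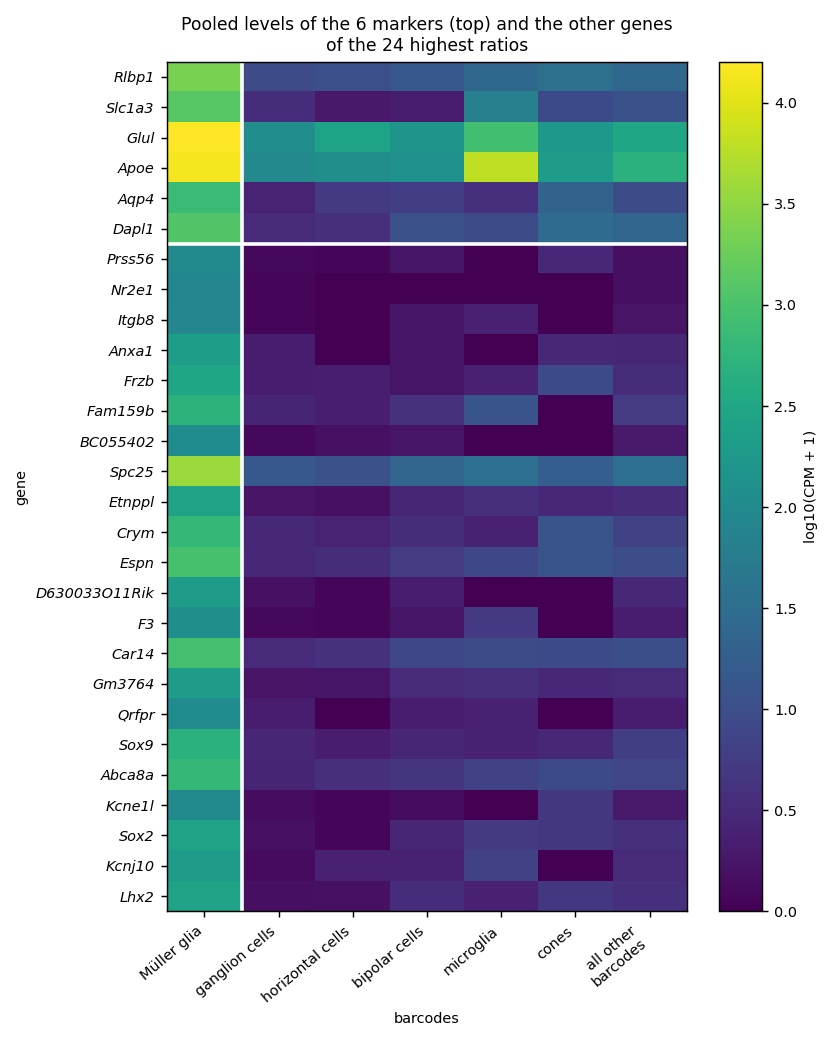
Pooled level of each gene, as log10 of CPM plus 1, in Müller glia (left column), the 5 marker-defined classes and all other barcodes. The 6 markers stand above the white line, with the other genes of the 24 highest ratios below it; Apoe has a second bright cell, in microglia, at 6394 CPM.

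Across the transcriptome, 1514 of 11645 genes with 100 or more UMIs were at least 2-fold higher in Müller glia (13.0%), and 3328 were at least 2-fold lower (28.6%). At 10-fold or more, 306 genes were higher (2.63%) and 588 lower (5.05%). The median log2 ratio of all 11645 genes was -0.35. These values are the background for the gene groups that follow, and since the rule used the same counts they describe the members and test nothing.

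The 24 highest ratios ran from 90.6 to 198, and 15 of these genes were 100-fold or more above the other barcodes. Slc1a3 and Rlbp1, the genes of the rule, are among the 24, and Slc1a3 is among the 15. Their ratios, here and against the classes, restate the rule. Each of the 24 was also higher in Müller glia than in every class, by 14.4-fold or more. Prss56, a secreted serine protease tied to eye size, had the highest ratio, with 99.99 CPM in Müller glia and 0.505 CPM in the other barcodes (ratio 198, interval 115 to 366). That ratio rests on 15 UMIs in the other barcodes, and Prss56, Nr2e1 and Itgb8, with 104, 86 and 92 UMIs in the members, passed the 100-UMI filter mainly through the members. Under 100 UMIs in the other barcodes were also held by Anxa1, Frzb, BC055402, Etnppl, D630033O11Rik, F3, Gm3764, Qrfpr, Kcne1l, Sox2, Kcnj10 and Lhx2. These too passed the filter only through the members. So did genes named later with few UMIs in the other barcodes, such as Agt and Pdgfrb. The order is not firm, since with 5 CPM added to both sides 9 of the 24 genes stayed among the 24 highest. Prss56 was a sparse gene, seen in 35 of the 214 members (16.4%), and its richest barcode held 12.5% of its UMIs. Spc25, annotated as a kinetochore subunit, was broad, with 3777 CPM in Müller glia and 33.7 CPM in the other barcodes, and was seen in 98.1% of members.

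Nr2e1, Sox9, Sox2 and Lhx2, among these 24, encode transcription factors. Nr2e1, the orphan nuclear receptor Tlx, gave 82.7 CPM in Müller glia and 0.505 CPM in the other barcodes. Sox9 gave 486 CPM in Müller glia and 4.95 CPM in the other barcodes. Sox2 gave 268 CPM in Müller glia and 2.86 CPM in the other barcodes, and Lhx2 gave 263 CPM against 2.90 CPM. All of these are factors that retinal progenitors use, and Sox9 was seen in 80.8% of members and Nr2e1 in 34.1%.

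The others included surface, secreted and metabolic proteins. Itgb8, an integrin subunit, gave 88.5 CPM in Müller glia and 0.674 CPM in the other barcodes. Frzb, a secreted Wnt antagonist, gave 310 CPM in Müller glia and 2.59 CPM in the other barcodes. F3, tissue factor, gave 121 CPM in Müller glia and 1.18 CPM in the other barcodes. Anxa1 (annexin A1), Crym (a thyroid hormone-binding crystallin), Espn (the actin bundler espin), Etnppl (ethanolamine-phosphate phospho-lyase), Car14 (carbonic anhydrase 14) and Abca8a (a lipid transporter) had ratios between 97.5 and 124. BC055402, D630033O11Rik and Gm3764 are annotated as long intergenic noncoding RNAs, with ratios of 114, 104 and 98.6.

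At the low end, the 12 lowest ratios belonged to genes with no UMI in any member, so each is a bound, taken against a floor of 3 counts over all members. Slc17a6, the vesicular glutamate transporter of ganglion cells, and Lhx1, a horizontal cell factor, were at 0 by the rule. Rgs17, a regulator of G-protein signalling, was at least 27.6-fold lower in Müller glia than in the other barcodes, where it stood at 79.6 CPM. Cacng5, a regulatory subunit of glutamate receptors, was at least 17.1-fold lower, and Scn3a, a sodium channel, at least 14.7-fold lower. The remaining 7 were 9530059O14Rik, Slc6a15, Fam155a, Mmp9, Zfhx4, Chst8 and Kcnd2, with bounds between 11.5-fold and 20.03-fold lower.

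Markers of most other retinal neurons and of microglia were lower in the members. All 13 ganglion cell markers, all 7 horizontal cell markers, all 6 cone markers and all 9 microglial markers were at least 2-fold lower in Müller glia, as were 7 of 8 bipolar markers. Over all genes 28.6% were lower. Slc17a6, 1 of the 13, and Lhx1, 1 of the 7, were at 0 by the rule, so their direction was fixed in advance. The summed ganglion cell list gave 492 CPM in Müller glia and 6881 CPM in the other barcodes. Of 8 amacrine genes, 7 passed the filter, 1 was higher and 5 were lower, and the list summed to 784.5 CPM in Müller glia and 729 CPM in the other barcodes. The higher gene was Pax6, at 747 CPM in Müller glia and 351 CPM in the other barcodes, while Slc32a1, the inhibitory vesicle transporter, had 1 UMI. Of the non-neuronal lists, all 4 haemoglobin genes were at least 2-fold lower in Müller glia. The 7 oligodendrocyte markers summed to 5 UMIs in the members, with Mbp, Mog, Mag, Olig1 and Olig2 at 0. Of 8 pigment epithelium genes, 2 passed the filter and Rgr was higher, while Rpe65 and Lrat were at 0.

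Rod genes were close to the level of the other barcodes. The 8 rod markers summed to 2045 CPM in Müller glia and 2437 CPM in the other barcodes, and none of them differed by 2-fold. Gngt1, the gamma subunit of rod transducin, gave 407 CPM in Müller glia, 131 CPM in ganglion cells and 665 CPM in bipolar cells. The rod UMIs were unevenly spread: at 3000 UMIs, 14 members held 16 to 97 of them and 68.1% of the total, whereas the other 200 held at most 9, with a median of 2. Without those 14 members Gngt1 stood at 94.9 CPM. The share of barcodes with 10 or more rod UMIs was 6.54% in Müller glia, 11.8% in bipolar cells, 7.64% in microglia and 2.88% in ganglion cells. Scrublet, which scores barcodes against simulated doublets, called 62 barcodes (2.00%), 2 of them members and none of them among those 14. Leaving the 14 out moved 5 of 299 named or listed genes across the 2-fold limit and reversed none that had been past it. The other 200 members still held rod UMIs, and the part of rod RNA in other results was not tested.

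**Figure D2:**
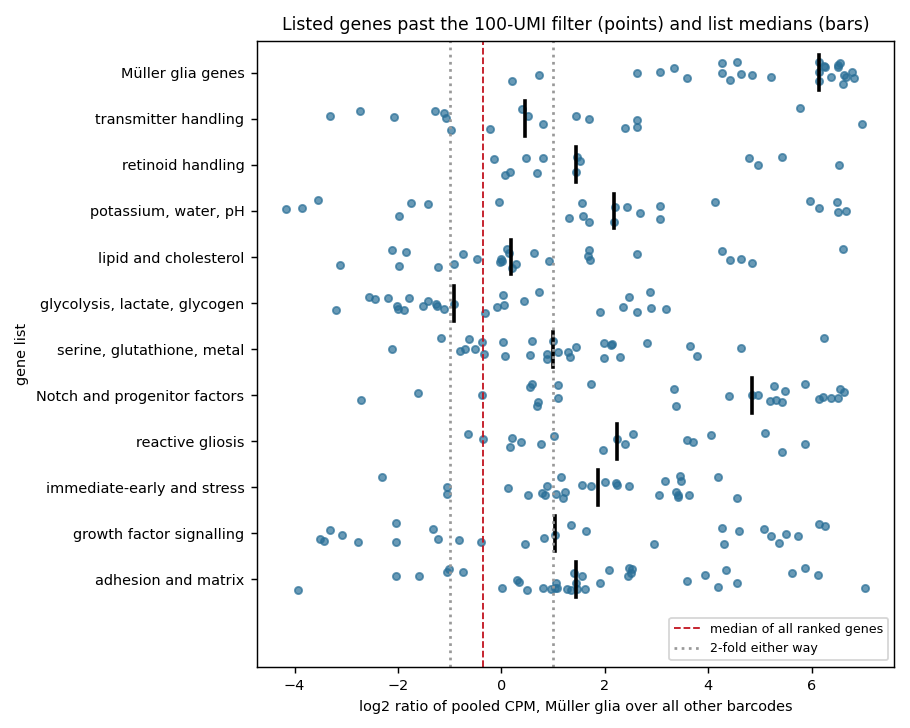
Log2 ratio of pooled CPM, Müller glia over all other barcodes, for the genes of 12 functional lists with 100 or more UMIs (points), with the median of each list (black bar). The dashed red line is the median of all ranked genes, at -0.35, and the dotted lines mark 2-fold either way; the Müller glia list and the Notch and progenitor list lie far to the right, and the glycolysis list is the only one whose median lies left of the red line.

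Of 28 genes listed as known for Müller glia, 27 passed the 100-UMI filter, 25 were at least 2-fold higher and none was 2-fold lower, with a median log2 ratio of 6.13. Over all genes 13.0% were higher and 28.6% lower. The list shares genes with other lists used here and was drawn up with results of these cells known. Its members included Cp, the copper oxidase ceruloplasmin, at 887 CPM in Müller glia and 11.8 CPM in the other barcodes. Prdx6, a peroxiredoxin, gave 2209 CPM in Müller glia and 89.4 CPM in the other barcodes. Dkk3, a secreted protein of the Dickkopf family, gave 1837 CPM in Müller glia and 95.9 CPM in the other barcodes. The 2 genes between the limits were Vim and Aldoc, both described further below, and Trdn had no UMI in any member.

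Genes of neurotransmitter handling lay in both directions. Of 20 listed genes, 18 passed the filter, 7 were at least 2-fold higher and 6 at least 2-fold lower. Over all genes 13.0% were higher and 28.6% lower, so the lower share was near the background. The higher genes included Slc1a3, whose level restates the rule, and Glul, and the lower genes included transporters such as Slc38a2 and Slc6a9. Slc1a2, the gene of the glutamate transporter GLT-1, gave 282 CPM in Müller glia and 45.5 CPM in the other barcodes. The glutamine transporter Slc38a3, which releases glutamine, gave 236 CPM in Müller glia and 38.1 CPM in the other barcodes. Cones and bipolar cells also carried both of these, at 534 and 197 CPM for Slc1a2 and at 214 and 218 CPM for Slc38a3, so they were not restricted to Müller glia.

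The aminotransferases that exchange aspartate and glutamate were lower. Got1, the cytosolic aspartate aminotransferase, gave 39.4 CPM in Müller glia and 392 CPM in the other barcodes, 9.94-fold lower (interval 7.32 to 13.9). Got2, its mitochondrial counterpart, gave 20.2 CPM in Müller glia and 135 CPM in the other barcodes. Both were also lower in Müller glia than in each of the 4 neuronal classes.

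For GABA, the transporter Slc6a11 (GAT3) and the catabolic enzyme Abat were 5.23-fold and 2.72-fold higher in Müller glia. Slc6a11 gave 316 CPM in Müller glia and 84.5 CPM in ganglion cells, the next class. Slc6a13 (GAT2) needs care: 28 of its 30 UMIs came from a single barcode, taken up below. The glycine transporter Slc6a9 had 6 UMIs in all members.

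Retinoid genes were present in part. Of 24 listed genes, 13 passed the filter, 7 were at least 2-fold higher and none 2-fold lower. Over all genes 13.0% were higher and 28.6% lower. The 7 include Rlbp1, whose level restates the rule. Rdh10, a retinol dehydrogenase, gave 221 CPM in Müller glia and 7.14 CPM in the other barcodes. Aldh1a1, which makes retinoic acid, gave 154 CPM in Müller glia and 3.60 CPM in the other barcodes, but was seen in 36.9% of members.

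The enzymes that break retinoic acid down were rare and uneven. Cyp26a1 gave 57 UMIs in 15 members (7.01%), with 59.7% of these UMIs in the 5 richest barcodes, and 0.337 CPM in the other barcodes. Cyp26b1 was seen in 11.2% of members. Both were under the filter of 100 UMIs over both sides and so are in no count. Rgr, an opsin of pigment epithelium and Müller glia, gave 11 UMIs in the members, and Awat2, proposed to esterify retinol for cones, gave none.

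Of 27 listed genes of potassium, water and pH handling, 23 passed the filter, 16 were at least 2-fold higher and 6 at least 2-fold lower, with a median log2 ratio of 2.17. The lower share was near the 28.6% over all genes, of which 13.0% were higher. Kcnj10, the inward rectifier Kir4.1, gave 203 CPM in Müller glia and 2.22 CPM in the other barcodes. Mlc1, a membrane protein of glial endfeet, gave 475 CPM in Müller glia and 6.77 CPM in the other barcodes. Kcnj2, another inward rectifier, had no UMI in the members and was at least 3.95-fold lower, and the gap junction gene Gja1 also had none.

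The sodium-potassium pump exports sodium and takes up potassium. Fxyd1, phospholemman, which regulates the pump, gave 1494 CPM in Müller glia and 23.98 CPM in the other barcodes. The beta subunits of the pump differed in direction. Atp1b2 gave 574 CPM in Müller glia and 178 CPM in the other barcodes, and Atp1b3 gave 376 CPM in Müller glia and 82.5 CPM in the other barcodes. Atp1b1, the subunit of ganglion and horizontal cells, gave 81.7 CPM in Müller glia and 1465 CPM in the other barcodes, 17.9-fold lower (interval 14.5 to 22.4). Against bipolar cells, at 130 CPM, the difference was smaller. Slc4a3, an anion exchanger, was 11.6-fold lower in Müller glia, with 1455 CPM in horizontal cells.

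The genes listed for glycolysis, lactate and glycogen were more often lower than higher. Of 28 genes of glycolysis, lactate transport and glycogen, 27 passed the filter, 7 were at least 2-fold higher and 13 at least 2-fold lower, and the median log2 ratio was -0.92. Genes as a whole were also more often lower, with 13.0% higher and 28.6% lower. Pkm, pyruvate kinase, gave 477 CPM in Müller glia and 1902 CPM in the other barcodes. Aldoa, aldolase A, gave 1035 CPM in Müller glia and 3828 CPM in the other barcodes. Gapdh gave 1509 CPM in Müller glia and 3571 CPM in the other barcodes. The 3 genes lay lower in Müller glia than in each of the 4 neuronal classes and close to microglia, where Pkm stood at 530 CPM, Aldoa at 998 CPM and Gapdh at 1565 CPM.

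The 7 higher genes were Slc16a1, Pygb, Gbe1, Slc2a1, Ppp1r3c, Pygl and Eno1. Slc2a1, the glucose transporter GLUT1, gave 266 CPM in Müller glia and 43.1 CPM in the other barcodes. Slc16a1, the monocarboxylate transporter MCT1, gave 135 CPM in Müller glia and 14.9 CPM in the other barcodes. Other transporters and entry enzymes were lower, with Hk1, hexokinase 1, at 50.95 CPM in Müller glia and 146 CPM in the other barcodes, and Slc16a3, the monocarboxylate transporter MCT4, at 4 UMIs in the members. Gbe1 and Pygb, which branch and break down glycogen, were 7.28-fold and 7.41-fold higher. Eno1, alpha-enolase, gave 4010 CPM in Müller glia and 1075 CPM in the other barcodes, whereas Eno2, the neuronal enolase, gave 70.2 CPM and 645 CPM. Aldoc, the aldolase typical of glia, was 1.66-fold higher, with 928 CPM in ganglion cells.

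**Figure D3:**
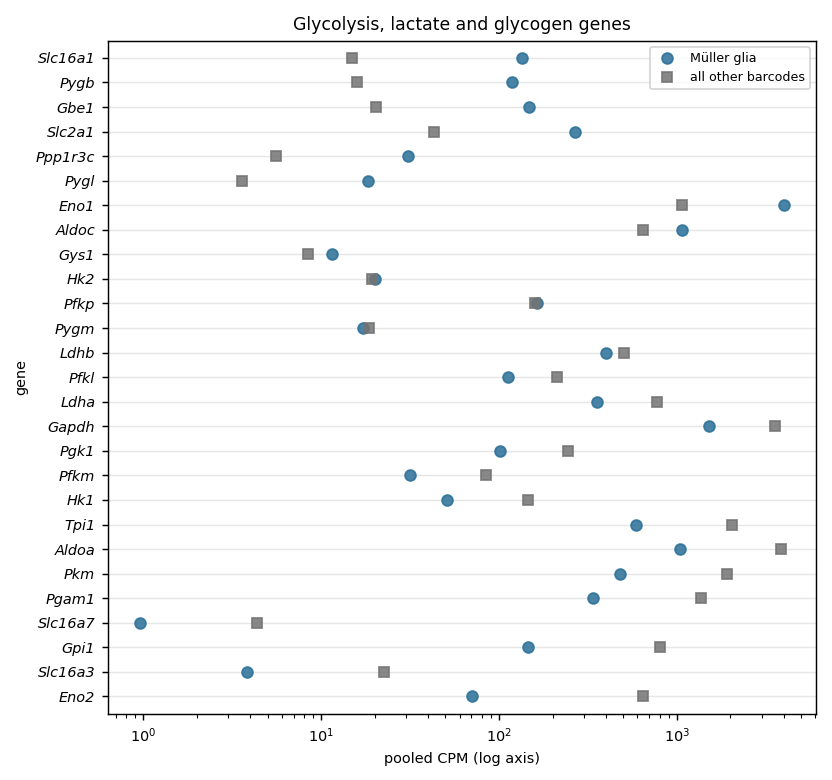
Pooled CPM (log axis) of the 27 glycolysis, lactate and glycogen genes that passed the filter, in Müller glia (blue circles) and all other barcodes (grey squares), ordered by ratio. The blue circles lie to the right for the 7 genes from Slc16a1 to Eno1 at the top and to the left for Pygm and the genes below it.

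Of 29 listed lipid and cholesterol genes, 26 passed the filter, 9 were at least 2-fold higher and 5 at least 2-fold lower, and the median log2 ratio was 0.18. The shares over all genes were 13.0% higher and 28.6% lower. Dbi, an acyl-CoA binding protein, gave 4937 CPM in Müller glia and 199 CPM in the other barcodes. Acsl3, which activates fatty acids, gave 1257 CPM in Müller glia and 58.6 CPM in the other barcodes. Clu, clusterin, gave 3134 CPM in Müller glia and 164 CPM in the other barcodes. Fabp5, a fatty acid carrier, gave 29.8 CPM in Müller glia and 258.5 CPM in the other barcodes, and Abcg1, a sterol exporter, was 2.34-fold lower. Fdft1, squalene synthase, was 3.93-fold lower, while Sqle, Idi1, Insig1 and Msmo1 of the cholesterol pathway were within 2-fold. Apoe itself was 2.2-fold higher in Müller glia than in microglia (interval 2.13 to 2.28), the other class in which it was high.

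For amino acid, redox and metal genes, 29 of 30 passed the filter, 14 were at least 2-fold higher and 2 at least 2-fold lower. Over all genes 13.0% were higher and 28.6% lower. Psat1, of serine synthesis, gave 118 CPM in Müller glia and 16.7 CPM in the other barcodes, while Phgdh, which opens that pathway, gave 19.2 CPM and 18.9 CPM. Gstm1, a glutathione transferase, was 13.8-fold higher, and Trf, transferrin, was 12.4-fold higher, although microglia had 882 CPM of Trf against 408 CPM in Müller glia. Slc7a11, the cystine-glutamate exchanger, was 4.36-fold higher but rested on 33 UMIs.

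The metallothioneins Mt1 and Mt2, small proteins that bind zinc and copper, varied together among the members. Mt1 gave 2488 CPM in Müller glia and 625 CPM in the other barcodes, and Mt2 gave 668 CPM in Müller glia and 151 CPM in the other barcodes. Bipolar cells were near the Müller glia in both, at 2082 and 638 CPM. At 3000 UMIs per barcode, Mt1 had a median of 5 UMIs per member, quartiles of 3 and 9 and a maximum of 70. The Spearman correlation of Mt1 and Mt2 over the 214 members was 0.518, given as a description, since the barcodes share 1 library pool and were held at equal depth. Mt3, the neuronal form, gave 357 CPM in Müller glia and 341 CPM in the other barcodes.

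The promoters of Mt1 and Mt2 are shown because the genes are neighbours on chromosome 8 and varied together. They are RefSeq windows of 300 bases on the plus strand of GRCm38.p6, chr8:94178839-94179138 for Mt1 and chr8:94172368-94172667 for Mt2, running from 250 bases before to 50 after the annotated start. Capitals mark the core of the metal response element, searched as TGCACNC or TGCGCNC on both strands.
Mt1: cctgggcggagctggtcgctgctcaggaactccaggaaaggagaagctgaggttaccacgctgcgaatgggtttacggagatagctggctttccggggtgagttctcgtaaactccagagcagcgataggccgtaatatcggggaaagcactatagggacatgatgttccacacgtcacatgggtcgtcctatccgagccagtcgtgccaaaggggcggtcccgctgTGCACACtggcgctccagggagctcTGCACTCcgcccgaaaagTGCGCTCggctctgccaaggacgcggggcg
Mt2: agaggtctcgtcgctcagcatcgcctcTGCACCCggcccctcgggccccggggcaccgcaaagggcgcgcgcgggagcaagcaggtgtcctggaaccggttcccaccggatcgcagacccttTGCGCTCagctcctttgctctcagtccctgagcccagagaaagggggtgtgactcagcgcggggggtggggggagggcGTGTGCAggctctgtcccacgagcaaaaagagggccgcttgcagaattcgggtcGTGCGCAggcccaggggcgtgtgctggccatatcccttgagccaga
The core was found at 3 places in the Mt1 window and 4 in the Mt2 window. Of 32851 RefSeq promoter windows, 25.7% held at least 1 match and 7.11% held 2 or more. A match is a description of the letters and not of binding in these cells.

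Of 35 listed Notch pathway genes and progenitor factors, 27 passed the filter, 20 were at least 2-fold higher, 17 of them 10-fold or more, and 2 were at least 2-fold lower, with a median log2 ratio of 4.84. Genes as a whole were higher in 13.0% of cases and lower in 28.6%. The receptor Notch1 gave 109 CPM in Müller glia and 2.43 CPM in the other barcodes, and Notch2 gave 138 CPM and 4.41 CPM. The ligands Dll1, Dll4 and Jag1 gave 8, 0 and 4 UMIs in the members. Rbpj, the DNA-binding partner of the pathway, was within 2-fold, at 19.2 CPM in Müller glia and 11.8 CPM in the other barcodes.

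Downstream, Hes1, a repressor induced by Notch, gave 2409 CPM in Müller glia and 34.1 CPM in the other barcodes. Hes5, a related repressor, gave 1134 CPM in Müller glia and 15.2 CPM in the other barcodes. Nrarp, a feedback inhibitor of Notch, gave 165 CPM in Müller glia and 2.83 CPM in the other barcodes. Hey1 was 2.15-fold higher, and Hey2 gave 58 UMIs in 22.9% of members, too few over both sides for the filter.

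Hes1 and Hes5 did not follow the same pattern over the members. At 3000 UMIs, Hes1 had a median of 5 UMIs, with 13 members at 0 and 70 members at 10 or more. Hes5 had a median of 1 UMI, with 86 members at 0 (40.2%) and 27 at 10 or more, and those 27 held 57.2% of its UMIs. Their Spearman correlation over the 214 members was 0.017, too weak to count as a relation in sparse data. Hes5 ranked sixth among 828 genes by variance over mean, at 8.39, where the median gene was at 1.06.

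**Figure D4:**
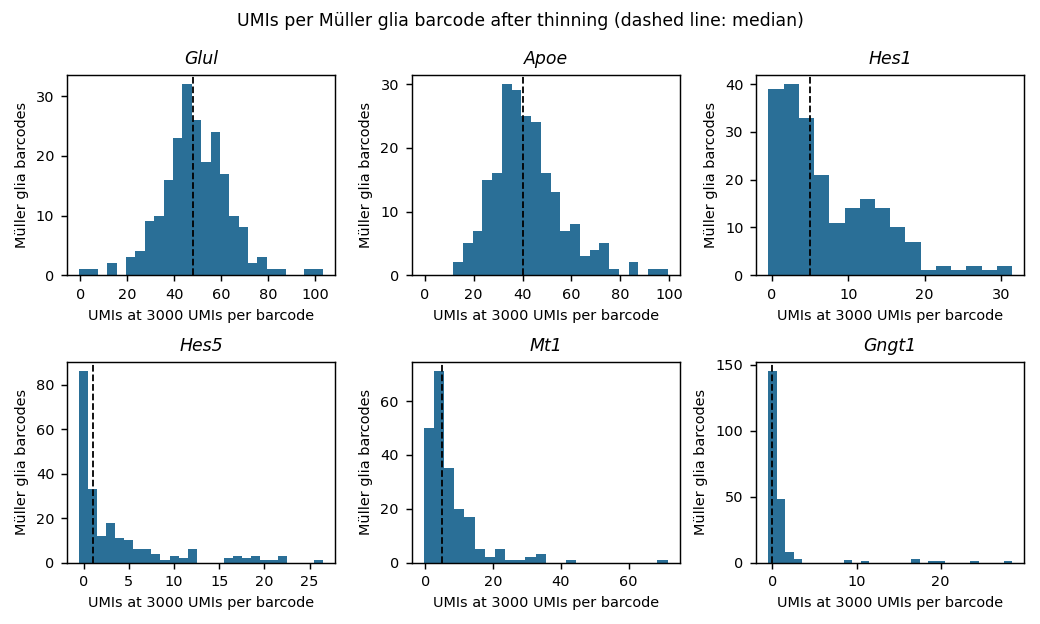
Number of Müller glia barcodes by UMIs of 6 genes after thinning each of the 214 barcodes to 3000 UMIs, with the median as a dashed line. Glul and Apoe form single peaks around medians of 48 and 40 UMIs, Hes1 has a second shoulder above 10 UMIs, and Hes5, Mt1 and Gngt1 have long right tails.

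The Hes5 promoter is shown as the window that lies upstream of this uneven gene. It is the RefSeq window chr4:154960673-154960972 on the plus strand of GRCm38.p6, and capitals mark TGGGAA, the core bound by RBPJ, or its reverse complement.
Hes5: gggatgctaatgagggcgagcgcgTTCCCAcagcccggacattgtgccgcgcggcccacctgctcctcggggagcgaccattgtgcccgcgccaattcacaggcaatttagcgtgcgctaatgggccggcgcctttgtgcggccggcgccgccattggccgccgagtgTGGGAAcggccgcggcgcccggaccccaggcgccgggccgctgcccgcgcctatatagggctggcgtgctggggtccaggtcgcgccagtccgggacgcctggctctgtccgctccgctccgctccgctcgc
It held 2 matches, starting at bases 25 and 169 of the window. Of the 32851 windows, 25.6% held a match and 3.79% held 2 or more. Among the 24 highest genes, 22 had a window, and 7 of these genes had a match in any of their windows. That is a count of genes, so it cannot be set against the share of windows.

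Other transcription factors of the list were also measured. Sox8 gave 235 CPM in Müller glia and 2.83 CPM in the other barcodes. Id1 and Id3, inhibitors of basic helix-loop-helix factors, were 38.6-fold and 39.6-fold higher, and Nfix, Nfib and Nfia, nuclear factor I genes of late progenitors and glia, were 43.2-fold, 21.1-fold and 10.1-fold higher. Rax, a retinal homeobox factor, gave 506 CPM in Müller glia and 293 CPM in cones, with 17.7 CPM in the other barcodes as a whole. Otx2, a photoreceptor and bipolar factor, had 5 UMIs in all members.

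Immediate-early genes, whose transcription responds quickly to many stimuli, were high. Of 28 listed immediate-early and stress genes, all passed the filter, 20 were at least 2-fold higher and 3 at least 2-fold lower, with a median log2 ratio of 1.87. Over all genes 13.0% were higher and 28.6% lower. Against the 5 classes weighted equally, so that microglia count as much as each neuronal class, 13 of the 28 were higher and the median was 0.65. Fos gave 3828 CPM in Müller glia and 371 CPM in the other barcodes, with 3404 CPM in microglia and 71.0 CPM in horizontal cells. Jun gave 3476 CPM in Müller glia, 3575 CPM in microglia and 291 CPM in ganglion cells. Ier2 gave 2868 CPM in Müller glia, 1315 CPM in microglia and 81.2 CPM in ganglion cells. The levels in Müller glia and microglia were thus of similar size, and those in neurons were far lower.

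The level was shared by most members. The sum of Fos, Jun, Junb, Ier2, Btg2 and Egr1 had a median of 52 UMIs at 3000 UMIs per member, with quartiles of 41.3 and 62. In microglia the median was 49 UMIs, in ganglion cells 3, in cones 2, in bipolar cells 1 and in horizontal cells 0. Of the 214 members, 15 (7.01%) had fewer than 10 of these UMIs, against 96.8% of ganglion cells. The ranges of Müller glia, 0 to 102 UMIs, and microglia, 0 to 112 UMIs, overlapped almost wholly. The highest ganglion cell had 17 UMIs, the highest horizontal cell 22, the highest cone 28 and the highest bipolar cell 49.

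Some stress genes were far lower in Müller glia than in microglia. Klf2, a zinc finger factor, gave 51.9 CPM in Müller glia and 3029 CPM in microglia, Sgk1, a kinase, 33.7 CPM and 1726 CPM, and Atf3 180 CPM and 1701 CPM. Egr2, Atf3, Ier3 and Rhob were higher in Müller glia than in all other barcodes but lower than in the 5 classes weighted equally, where microglia count more. The chaperone gene Hspa8 was 2.07-fold lower in Müller glia, and Hspa1a was within 2-fold, at 151 CPM in Müller glia and 106 CPM in the other barcodes.

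**Figure D5:**
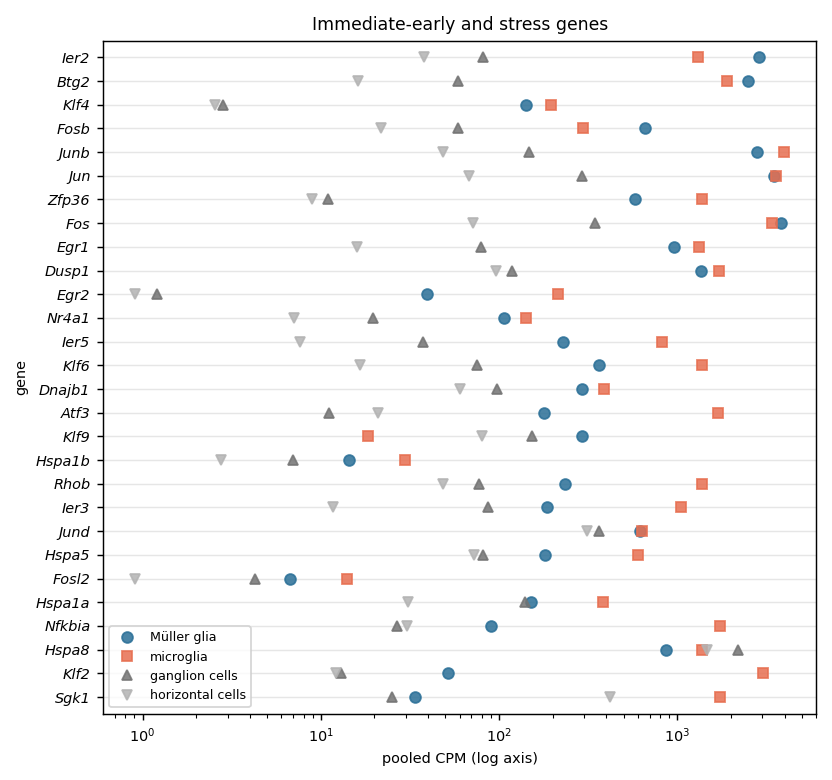
Pooled CPM (log axis) of the 28 immediate-early and stress genes in Müller glia (blue circles), microglia (orange squares), ganglion cells and horizontal cells (grey triangles), ordered by the ratio of Müller glia over all other barcodes. For Fos, Jun, Junb and Ier2 the circles and squares lie to the right of both triangles, and for Klf2 and Sgk1 the squares lie farthest to the right.

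Genes of reactive gliosis did not form a single picture. Of 28 listed genes, 17 passed the filter, 11 were at least 2-fold higher and none 2-fold lower, but several rested on few barcodes. The shares over all genes were 13.0% higher and 28.6% lower. Gfap gave 28 UMIs, and 27 of them lay in 3 members, with 20, 4 and 3 UMIs. The member with 20 was the deepest of all, at 21927 UMIs, and it also held 34 of the 47 Serpina3n UMIs, 10 of the 16 Lcn2 UMIs, 28 Slc6a13 UMIs and 90 Dapl1 UMIs. Its Glul level was 1049 CPM, it had no Aqp4 UMI, and Scrublet did not call it a doublet. The member with 4 had 10 Pdgfra, 2 Pax2 and 16 S100b UMIs, genes associated with astrocytes or their precursors, and no Aqp4 or Dapl1 UMI.

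Without those 3 members, Gfap had 1 UMI in 211 barcodes and Serpina3n had 1. The counts for the gliosis list were then 7 higher and 2 lower of 15 genes past the filter, so part of this list depends on 3 barcodes. Gfap is 1 of the 2 lower genes, while Serpina3n and Lcn2 fell under the filter and are in neither count. The ratios of Gfap and Serpina3n turned to 0.216 and 0.365, B2m slipped to 1.99, and Lcn2 kept 2.04 on 6 UMIs. Those 3 barcodes were picked on their Gfap UMIs and the other side was left as it was. The turn of Gfap therefore followed from the choice and is no result of its own. Timp3, Cd44, S100a6 and Socs3 stayed higher, with ratios of 58.5, 39.0, 32.8 and 11.9. The ratios of the 6 markers moved little, Glul to 56.2 and Apoe to 28.2. Vim, vimentin, an intermediate filament of resting Müller glia too, was seen in 91.1% of members, at 596 CPM in Müller glia and 519 CPM in the other barcodes, where horizontal cells held 2077 CPM.

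Other genes of the list were broad. Timp3, a metalloproteinase inhibitor, gave 1314 CPM in Müller glia and 22.5 CPM in the other barcodes, and was seen in 96.3% of members. Cntfr, the receptor subunit for ciliary neurotrophic factor, gave 349 CPM in Müller glia and 29.2 CPM in the other barcodes. Cd44, a hyaluronan receptor of Müller microvilli, gave 80.8 CPM in Müller glia and 1.89 CPM in the other barcodes. Socs3, a feedback inhibitor of cytokine signalling, gave 342 CPM in Müller glia, seen in 40.7% of members, and 675 CPM in microglia.

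Growth factor receptors included some better known from vessels. Of 43 listed signalling genes, 27 passed the filter, 14 were at least 2-fold higher and 9 at least 2-fold lower. With 13.0% higher and 28.6% lower over all genes, the lower share was near the background. Kdr, which encodes VEGF receptor 2, gave 508 CPM in Müller glia and 6.67 CPM in the other barcodes, and was seen in 84.1% of members. Flt1, VEGF receptor 1, gave 426 CPM in Müller glia and 12.7 CPM in the other barcodes, and was seen in 80.4% of members. The endothelial markers Cldn5, Pecam1, Tie1, Ly6c1 and Cdh5 gave 3, 2, 1, 1 and 0 UMIs in all members, and the endothelial list without Flt1 therefore had 7 UMIs.

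Pdgfrb, the PDGF receptor typical of pericytes, gave 72.1 CPM in Müller glia and 1.35 CPM in the other barcodes, and was seen in 30.4% of members. Of the 6 genes in the pericyte list 3 passed the filter, Pdgfrb only through the members. Pdgfrb was at least 2-fold higher and Rgs5 at least 2-fold lower, where 13.0% of all genes were higher and 28.6% lower. The pericyte genes Abcc9 and Cspg4 were at 0 and Rgs5 had 6 UMIs, in 1 barcode. Fgfr1 was 19.8-fold higher in Müller glia, whereas Fgfr2 and Fgfr3 had no UMI in any member. Egfr gave 26 UMIs in 10.3% of members and was under the filter.

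Cyr61 and Ctgf are known as targets of the Hippo pathway effectors YAP and TAZ. Cyr61, a matricellular protein, gave 2590.0 CPM in Müller glia and 36.9 CPM in the other barcodes, and was seen in 93.9% of members. Ctgf, a related protein, gave 469 CPM in Müller glia and 10.3 CPM in the other barcodes. Yap1 and Wwtr1, which encode the effectors, gave 31 UMIs each in the members, under the filter. The ligands Vegfb, Fgf1 and Pdgfa were 4.13-fold, 6.80-fold and 4.08-fold lower in Müller glia, while Vegfa was 2.54-fold higher.

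Of 43 adhesion and matrix genes, 37 passed the filter, 25 were at least 2-fold higher and 5 at least 2-fold lower. The shares over all genes were 13.0% higher and 28.6% lower. Crb1, a polarity protein of the outer limiting membrane, gave 203 CPM in Müller glia and 8.69 CPM in the other barcodes, with 134 CPM in cones. Col9a1 and Col2a1, collagens of the vitreous, were 49.4-fold and 70.0-fold higher. Sparc, a matricellular glycoprotein, gave 1110 CPM in Müller glia and 1356 CPM in microglia, whereas its relative Sparcl1 gave 19.2 CPM in Müller glia and 293 CPM in the other barcodes. Cdh2, N-cadherin of the limiting membrane junctions, was 5.56-fold higher.

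Astrocytes are the other macroglia of the retina. Of 8 listed astrocyte genes, 4 passed the filter, Agt, Fam107a, Gfap and S100b, and all were 2-fold or more higher, Gfap only with the 3 members above. The shares over all genes were 13.0% higher and 28.6% lower, and Agt passed the filter only through the members. Agt, angiotensinogen, gave 69.2 CPM in Müller glia and 1.04 CPM in the other barcodes, and was seen in 26.2% of members. The astrocyte factor Pax2 had 2 UMIs, both in 1 of the 3 members above, and Gjb6 and Slc39a12 had none. Aldh1l1, a folate enzyme used as an astrocyte marker, gave 29 UMIs in 13.1% of members and was under the filter. Without the 3 members S100b still had 32 UMIs, in 25 of 211 members, and was 2.48-fold higher. The whole list summed to 245 CPM in Müller glia and 22.97 CPM in the other barcodes, and its part in the other results was not tested.

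Among the members themselves, the median gene had a variance over mean of 1.06, close to what counting gives. Genes with few UMIs stay near 1 on this measure even where they vary, so it ranks abundant genes higher. Apoe, with a mean of 42.1 UMIs, is among the 15 highest although its standard deviation was 0.346 of its mean. At 3000 UMIs, 65 of 828 genes (7.85%) with a mean of 0.5 UMIs or more had a variance more than 2 times their mean. Among the 15 highest were Malat1, Cst3, Gngt1, Mt1, Hes5, Pde6g, Actb, Hes1, Sag, Gnat1, Mt2, Cryab, Apoe and Gadd45g. Gngt1, Pde6g, Sag and Gnat1 are rod genes, and 14 members held most of the rod UMIs, as given above. For Cst3, cystatin C, a single barcode held 22.0% of the UMIs, and it was the member with the Pdgfra transcripts. Malat1, a nuclear noncoding RNA, ranged from 13 to 423 UMIs around a median of 179.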

How the data were processed

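The authors deposited raw UMI counts per gene and barcode for 4 pooled retinas, with a table that pairs Ensembl identifiers and symbols. Per the submitters' processing notes, Cell Ranger (no version), Seurat 2.2 and the build mm10 were used. Settings for alignment and cell calling: not given in the sources used here. Of 27999 gene rows, 18698 had a UMI, and 27645 identifiers matched GENCODE M21, from which positions were taken.

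The members and gene lists were chosen with earlier results of these data known. UMIs were summed over members and over the other barcodes with under 15% mitochondrial UMIs and scaled to CPM. Intervals are exact at 95%, from the Poisson distribution for levels and by conditioning on the summed counts for ratios. A gene was counted as higher or lower at 2-fold with 100 or more UMIs over both sides. A count of 0 was replaced by a floor of 3 counts over the group, and the ratio is then a bound. Barcodes were thinned without replacement to 3000 UMIs for shares and variation. Members held 1040152 UMIs and the other barcodes 29690842.

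Named genes were the 24 highest and 12 lowest ratios, mitochondrial and ribosomal protein genes aside, listed genes with a value, and the 15 genes with the highest variance over mean. Classes needed 3 or more UMIs of Slc17a6 and Nefm, Trpm1 and Pcp2, C1qa and C1qb, or Arr3 and Gngt2, or for horizontal cells 1 of Lhx1 and 3 of Calb1 with no Slc17a6. The 62 barcodes meeting more than 1 rule were left out of the classes. Doublets were kept; Scrublet calls (scanpy 1.11.5) and edgeR 4.0.16 TMM factors served as alternatives. Other steps ran in pandas 2.3.3, scipy 1.17.1, numpy 2.4.6 and matplotlib 3.10.9 under Python 3.11.15. The scripts were tested on simulated counts. Some genes that the naming rule or the lists hold are counted but not reported here by name.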

Additional observations from a re-analysis of the deposited data

How the results depend on the processing

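No paired analysis was possible because the 4 retinas were pooled in 1 table without a label per barcode. The number of members was 147 with a minimum of 5 UMIs of both genes and 31 under a mitochondrial maximum of 5%. Genes at least 2-fold higher numbered 2371 with 20 or more UMIs over both sides, 608 with 500 or more and 3294 with 1 or more. In full counts Slc1a3, Aqp4 and Dapl1 were seen in 100%, 92.06% and 96.26% of members. Log2 ratios turned round under the 5% maximum, with few members left, for Slc4a4 (2.249), Slc12a2 (1.037), Abcg1 (0.195), Klf2 (0.012), Klf6 (-0.075), Bmp7 (0.142) and Ntrk2 (1.692). Against the 5 classes with equal weight they did so for B2m (-1.579), Egr2 (-0.134), Atf3 (-0.981), Ier3 (-0.477), Rhob (-0.423) and Pard6b (-0.242), and with equal weight per barcode for B2m (-0.003). Leaving out the 3 members with 3 or more Gfap UMIs, a choice made after seeing the data, as were the exclusions of the deepest member, of the 14 members rich in rod UMIs and of the 58 other barcodes with both genes, turned Gfap (-2.214) and Serpina3n (-1.455). The turn of Gfap followed from choosing those 3 members on its UMIs. The cause of the other turns was not tested beyond the counts given above. The median ratio of the 24 highest genes was 104, ranging from 34.5 with 5 CPM added to both sides to 272 without the 58 barcodes. Of the 24 highest genes, 9 stayed among the highest with 5 CPM added, 10 against equally weighted classes and 8 under the 5% maximum. Under that maximum the Notch and progenitor list had 13 genes higher, the adhesion list 16, and the growth factor and potassium lists 4 and 2 lower. With equally weighted classes 13 immediate-early genes were higher (median log2 ratio 0.646) and 3 gliosis genes lower. TMM factors moved the median log2 ratio of all genes from -0.353 to -0.269.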
